A study of Mus musculus with 2 samples.

Results

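Klf4 chromatin immunoprecipitation followed by sequencing was examined at the loci of 7 endothelial marker genes, Pecam1, Cdh5, Kdr, Flt1, Tek, Egfl7 and Eng. Each gene was given a window of the mouse genome build mm9, and a peak belonged to a gene when its midpoint lay in that window. The windows were 45 to 195 kb long and 750 kb in all, and they held 2 of the 7313 peaks that the authors deposited, or 0.0273%. Pecam1 and Kdr had 1 peak each, and Cdh5, Flt1, Tek, Egfl7 and Eng had none.

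The tissue was the mesenteric arcade of C57BL/6 mice on chow diet, the small vessels that feed the gut wall. One library came from animals of genotype eYFP+/+ Klf4delta/delta, labelled as lacking Klf4 in smooth muscle cells (SMC), and the other from eYFP+/+ Klf4WT/WT animals. Animals of both genotypes thus carried the SMC eYFP reporter. The sources used here give neither the Cre driver nor the number of animals pooled. The deposited peaks form a single list that carries no genotype, so the genotypes were not compared and no value below has a replicate error. Whether a library served as control in peak calling is not stated. If the Klf4-deleted library did, a score would measure signal beyond that library, and an empty window would not mean that signal was missing. The label names SMC, epithelial cells and macrophages and sums up the rest as other, so endothelial cells are not named in it. Peaks do not measure expression, so the presence of endothelial cells was not checked, and fewer endothelial cells cannot be told apart from less Klf4 signal in each of them.

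Klf4 is a zinc-finger transcription factor of the Krüppel-like family that binds CACCC and related GC-rich elements. In endothelium it is known as a factor induced by laminar flow that opposes inflammation and clotting, and in SMC it is known for repressing contractile genes. The 7 genes encode proteins by which endothelial cells are recognised. Pecam1 and Cdh5 encode adhesion molecules of the cell junctions, Kdr and Flt1 encode receptors of vascular endothelial growth factor, Tek encodes the angiopoietin receptor Tie2, Eng encodes endoglin, a co-receptor of the transforming growth factor beta family, and Egfl7 encodes a protein that endothelial cells secrete into the matrix.

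The junction genes differed in whether a peak was listed. The Pecam1 window, on chromosome 11 from 106500000 to 106630000, held a peak at 106574008 to 106574692, with its midpoint 74.3 kb from the lower edge and 55.6 kb from the upper edge. This peak was 685 bp wide and had a score of 61.19, which is the authors' own value, given by their peak caller. It stood near the bottom of the list, as 94 of 7313 peaks (1.29%) scored lower and the lowest score was 60.01. Peaks of a width within 10% of it, 1143 in number, had a median score of 87.99, and 3.50% of them scored lower. The Pecam1 peak was therefore low for its width as well. The Cdh5 window, on chromosome 8 from 106610000 to 106680000, held no peak. Cdh5 encodes VE-cadherin, the main cadherin of endothelial junctions.

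Of the growth factor receptors, Kdr had a peak and Flt1 had none. Kdr encodes VEGFR2, the receptor through which the growth factor mainly signals, and its window ran from 76310000 to 76390000 on chromosome 5. The peak lay at 76373477 to 76374175, 16.2 kb from the upper edge, and was 699 bp wide with a score of 77.86. In the list, 1482 peaks (20.3%) scored lower, and among the 1177 peaks of similar width, which had a median score of 90.8, 27.2% did. The Kdr peak was thus in the lower part of the list but well clear of its minimum, by 17.85 against 1.18 for the Pecam1 peak. Flt1 encodes VEGFR1, which binds the same ligand and can act as a decoy for it. Its window was the longest of all at 195 kb, on chromosome 5 from 148360000 to 148555000, and no peak midpoint fell in it.

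No peak was listed at the remaining receptor genes or at Egfl7. The windows were 160 kb for Tek on chromosome 4 (94390000 to 94550000), 70 kb for Eng on chromosome 2 (32485000 to 32555000) and 45 kb for Egfl7 on chromosome 2 (26420000 to 26465000). With the read depth not given in the sources used here, a window without a peak shows that none passed the authors' threshold, and no limit on binding can be set from it.

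**Figure D1:**
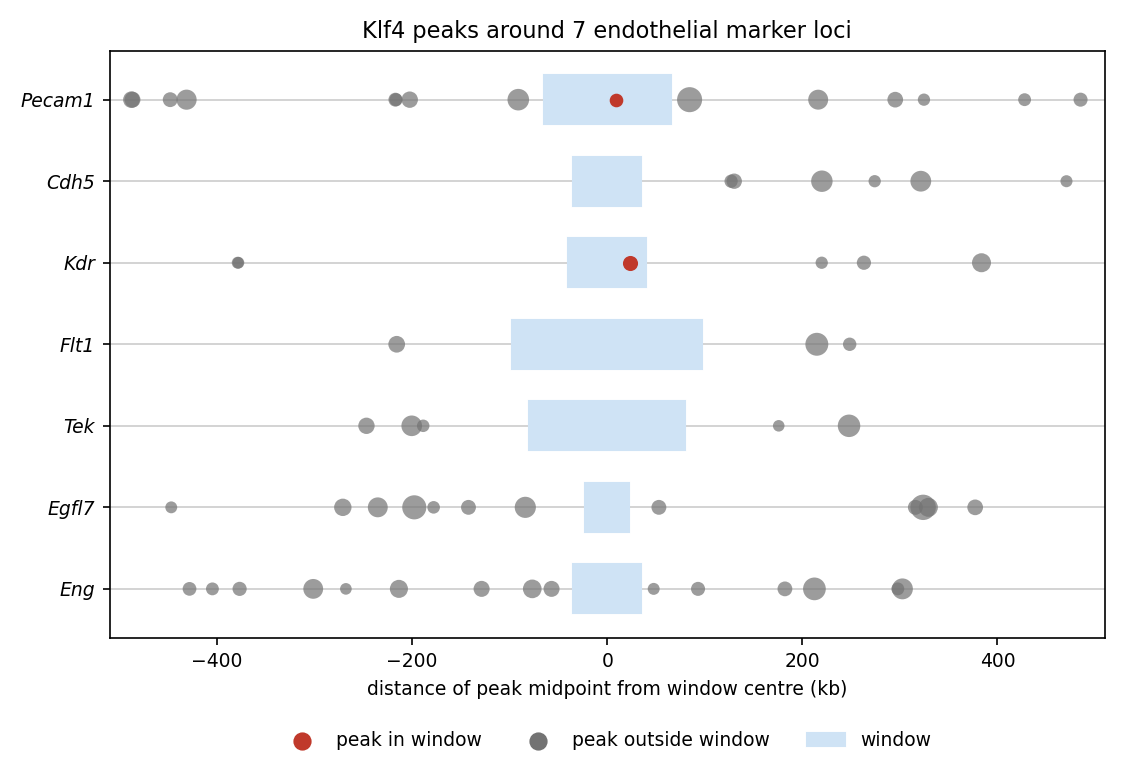
Peaks within 500 kb of the centre of each window, 1 row per gene, with the distance of the peak midpoint from the window centre in kb on the x axis. Blue boxes are the windows, red points are peaks in a window, grey points are peaks outside it, and a point's area is proportional to its score. The Pecam1 and Kdr windows hold 1 peak each, and the other 5 windows are empty. Cdh5 has grey points above its window only.

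Both peaks were narrow and low in score relative to the list. The median of the members was 69.53 in score and 692 bp in width, against 112.02 and 913 bp over all peaks. By width, 23.4% of all peaks were narrower than the Pecam1 peak and 25.1% were narrower than the Kdr peak. The ranks rose when the score was taken per kb of width, where 16.9% of peaks lay below the Pecam1 peak (89.3 per kb) and 34.7% below the Kdr peak (111.4 per kb). Against their own chromosomes the standing was similar, with 1.78% of the 617 peaks on chromosome 11 scoring below the Pecam1 peak and 21.5% of the 502 peaks on chromosome 5 scoring below the Kdr peak. The Pecam1 peak was 99.7 kb from the next peak on the lower side and 73.4 kb from the next on the upper side. The Kdr peak was more isolated, at 401.2 and 195.5 kb. The distance to the nearest peak was shorter than that of the Kdr peak for 86.1% of placed peaks and shorter than that of the Pecam1 peak for 65.6%, with a median of 39.6 kb. With 2 peaks, these values describe the peaks and not a class of loci.

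**Figure D2:**
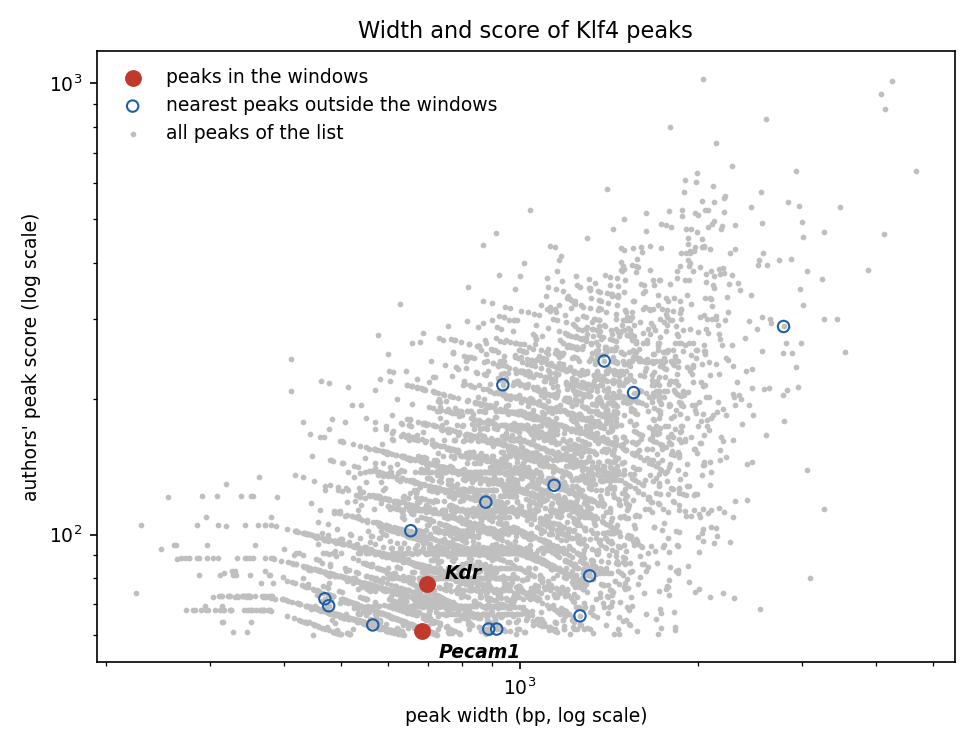
Width in bp (x axis, log scale) and the authors' score (y axis, log scale) of each peak. Red points are the peaks in the windows, blue circles are the nearest peaks outside the windows, and grey points are all 7313 peaks. The Pecam1 peak, at 61.19, lies at the lower border of the cloud, and the Kdr peak, at 77.86, lies a little above it.

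The bases under the peaks were not examined, because no mm9 genome was used here, and where the peaks lie relative to exons, introns and transcription starts was not determined. Sequence was instead taken from RefSeq on another build, GRCm38.p6, as the 300 bases from 250 before to 50 after each annotated start. It was found for 5 of the 7 genes, Kdr, Flt1, Tek, Egfl7 and Eng, with 7 starts since Egfl7 had 3. Pecam1 and Cdh5 had no entry. At 71.4% of the members, a comparison of the set with other promoters is void, so each gene is described alone. For the same reason, 19 other endothelial genes, of which 7 were found, are not described. The 250 bases before the start are shown for Kdr, which had a peak in its window, and for Flt1, Eng and Tek, which had none. Flt1 holds more GGGCGG than Kdr, and the others hold none. Only Kdr among these genes had a peak in its window, so whether a peak goes with this motif cannot be read from them and was not tested. Capitals mark CACCC, the core element of the Krüppel-like factors, and GGGCGG, the GC box, on either strand, so that they also appear as GGGTG and CCGCCC. The coordinates belong to GRCm38.p6 and cannot be set against those of the peaks. They are chr5:75978456-75978705 on the minus strand for Kdr, chr5:147726012-147726261 on the minus strand for Flt1, chr2:32646345-32646594 on the plus strand for Eng and chr4:94739039-94739288 on the plus strand for Tek.
Kdr: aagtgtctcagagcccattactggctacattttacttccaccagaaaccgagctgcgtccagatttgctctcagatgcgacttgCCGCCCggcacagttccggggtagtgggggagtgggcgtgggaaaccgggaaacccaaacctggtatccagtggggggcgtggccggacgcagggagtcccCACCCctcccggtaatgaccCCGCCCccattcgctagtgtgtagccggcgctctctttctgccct
Flt1: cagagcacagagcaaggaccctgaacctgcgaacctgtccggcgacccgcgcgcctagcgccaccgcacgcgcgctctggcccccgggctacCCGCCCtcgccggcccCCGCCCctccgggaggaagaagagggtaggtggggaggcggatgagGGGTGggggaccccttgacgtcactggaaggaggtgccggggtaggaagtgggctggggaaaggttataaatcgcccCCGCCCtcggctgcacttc
Eng: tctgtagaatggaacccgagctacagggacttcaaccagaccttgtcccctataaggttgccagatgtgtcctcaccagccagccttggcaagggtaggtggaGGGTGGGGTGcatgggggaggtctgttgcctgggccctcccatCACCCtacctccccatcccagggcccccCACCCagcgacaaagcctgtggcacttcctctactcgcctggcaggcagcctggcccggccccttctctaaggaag
Tek: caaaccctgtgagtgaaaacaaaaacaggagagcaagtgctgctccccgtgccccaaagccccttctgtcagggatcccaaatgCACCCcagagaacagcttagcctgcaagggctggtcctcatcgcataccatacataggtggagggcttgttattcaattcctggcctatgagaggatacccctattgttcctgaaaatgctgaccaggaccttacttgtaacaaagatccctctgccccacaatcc

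Within the 300 bases, the Kdr promoter held 1 CACCC and 2 GGGCGG matches, and its GC content was 60.7%. Of all 32851 promoter stretches in the table, 57.5% held CACCC and 35.7% held GGGCGG. The Eng promoter held 4 CACCC matches and no GGGCGG, and 96.9% of promoter stretches held fewer CACCC. The Eng promoter thus held more CACCC matches than that of Kdr. The Tek promoter had a GC content of 52.0%, with 1 CACCC match and without GGGCGG. The Flt1 promoter had a GC content of 70.7%, with 1 CACCC and 3 GGGCGG matches. Kdr and Flt1, the paired growth factor receptors, thus held the same number of CACCC matches. Where the peaks lie relative to these stretches was not determined. Whether a peak goes with CACCC therefore cannot be read from these counts and was not tested. The 3 Egfl7 starts held 0, 2 and 0 CACCC and 0, 0 and 4 GGGCGG matches. The longer element CACACCC, each match of which is also a CACCC match, was found in none of the 7 stretches and in 7.95% of all. CAGGAA, one form of the sites of ETS factors, which drive many endothelial genes, was found in 30.6% of all stretches. It had 2 matches in Tek, 1 in Eng and 2, 1 and 0 at the Egfl7 starts, and 0 in Kdr and in Flt1. The shorter core GGAA, which CAGGAA contains, was not counted, and it does occur in the Kdr and Flt1 stretches shown. A match is a run of letters and not a measured binding site, and no match speaks only for these letters in this stretch.

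Peaks were listed on either side of all 7 windows, and the nearest ones differed widely in distance. Eng was closely framed, with a peak 22.0 kb below its window (score 118.01) and one 12.7 kb above it (score 66.04), distances being from the window edge to the peak midpoint. Pecam1 had higher-scoring peaks close outside its window than inside it. The peak 19.5 kb above it was 2792 bp wide with a score of 289.0, higher than 95.7% of the list, and the peak 26.1 kb below it had a score of 214.66. For Egfl7 the nearest peaks were 61.4 kb below, with a score of 206.28, and 30.5 kb above, with a score of 101.97. Farther out lay those of Tek, 108.6 kb below (score 72.07) and 95.8 kb above (score 61.74), and those of Flt1, 118.3 kb below (score 128.53) and 117.4 kb above (score 242.32). For Kdr they lay 338.0 kb below (score 63.04) and 179.9 kb above (score 69.53), both scoring under the peak in the window. The Kdr peak thus scored higher than its nearest neighbours on both sides, and the Pecam1 peak lower.

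Cdh5 lay at the upper end of a long stretch without peaks. The nearest peak below its window was 8198.1 kb away (score 61.74), and the nearest above was 92.0 kb away (score 81.0). The stretch between these peaks measured 8359 kb, the longest between peaks on chromosome 8 and the one ranked 11 of 7278 such stretches in the list, whose median was 94.1 kb. How much of it is assembly gap or sequence to which reads cannot be assigned uniquely was not measured. The stretches around the other empty windows were 429.4 kb for Flt1, 363.7 kb for Tek, 135.8 kb for Egfl7 and 103.6 kb for Eng. In the same order, 81.8%, 79.3%, 58.8% and 52.3% of all stretches were shorter. An empty window lies in a stretch about as long as itself or longer, so the ranks of Flt1 and Tek, whose windows exceed the median stretch, were bound to be above the middle. A longer stretch also covers more positions, so any fixed locus tends to fall in a long one. This holds for Cdh5, Egfl7 and Eng as well, and whether any of these ranks is unusual was not tested. In the RefSeq gene order, the protein-coding genes next to each member were Tex2 and Milr1 for Pecam1, Cdh11 and Bean1 for Cdh5, Kit and Srd5a3 for Kdr, Pan3 and Pomp for Flt1, Lrrc19 and Eqtn for Tek, Notch1 and Agpat2 for Egfl7, and Ak1 and Fpgs for Eng. The peaks outside the windows were not assigned to these neighbours.

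The number of windows with a peak was read against all stretches of the same length. Each chromosome was cut into consecutive tiles as long as a window, from its first to its last peak, and the tiles with at least 1 peak midpoint were counted. A peak was present in 23.2% of tiles as long as the Pecam1 window and in 16.2% of tiles as long as the Kdr window. For the empty windows the shares were 29.9% at the length of Flt1, 26.5% at that of Tek, 14.7% at that of Cdh5 and of Eng, and 10.2% at that of Egfl7. Summed over the 7 lengths, the shares give 1.35 windows, and 1.64 with tiles of each gene's own chromosome only, beside the 2 of 7 seen. The count of windows with a peak was thus near the background of the list, and it does not set endothelial marker loci apart.

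In peaks per Mb, the windows as drawn were near the whole list and below their own surroundings in value. They held 2.67 peaks per Mb (95% exact Poisson interval 0.323 to 9.63, counting error only), against 9.14 (7.04 to 11.7) in the 500 kb on either side of them, 3.54 (3.41 to 3.68) over the 5 chromosomes that carry them and 2.86 (2.80 to 2.93) over all 20 chromosomes with peaks. The interval of the windows spans the values of both the chromosomes and the surroundings, and 2 peaks cannot tell these apart. Other distances were chosen after the data were seen. Within 250 kb on either side, the surroundings held 10.6 peaks per Mb (7.44 to 14.6). That value lay above the windows' interval, but its own interval overlaps that of the windows. Within 1000 kb, the surroundings held 6.71 peaks per Mb (5.43 to 8.22), a value inside the windows' interval. The difference between windows and surroundings was not tested. Windows widened by 25 and 50 kb on each side held 4.55 and 5.52 peaks per Mb. Both values were above that of the list but inside the interval of the windows as drawn. They do not show that the rate depended on the edges. The surroundings within 500 kb held 64 peaks, and their interval lay above that of the chromosomes. They were densest around Eng, with 16 peaks, Pecam1, with 14, and Egfl7, with 12, and held 7 around Cdh5 and 5 each around Kdr, Flt1 and Tek. All 7 of those near Cdh5 lay above its window. The median score of the 64 was 113.5, close to that of the list, and 33 of them (51.6%) exceeded the list's median. None of the 64 scored below the Pecam1 peak, and 48 scored above the Kdr peak. Over the whole list, 1.29% of peaks scored below the Pecam1 peak and 20.3% below the Kdr peak. Neighbouring peaks can depend on each other, so these intervals are too narrow.

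**Figure D3:**
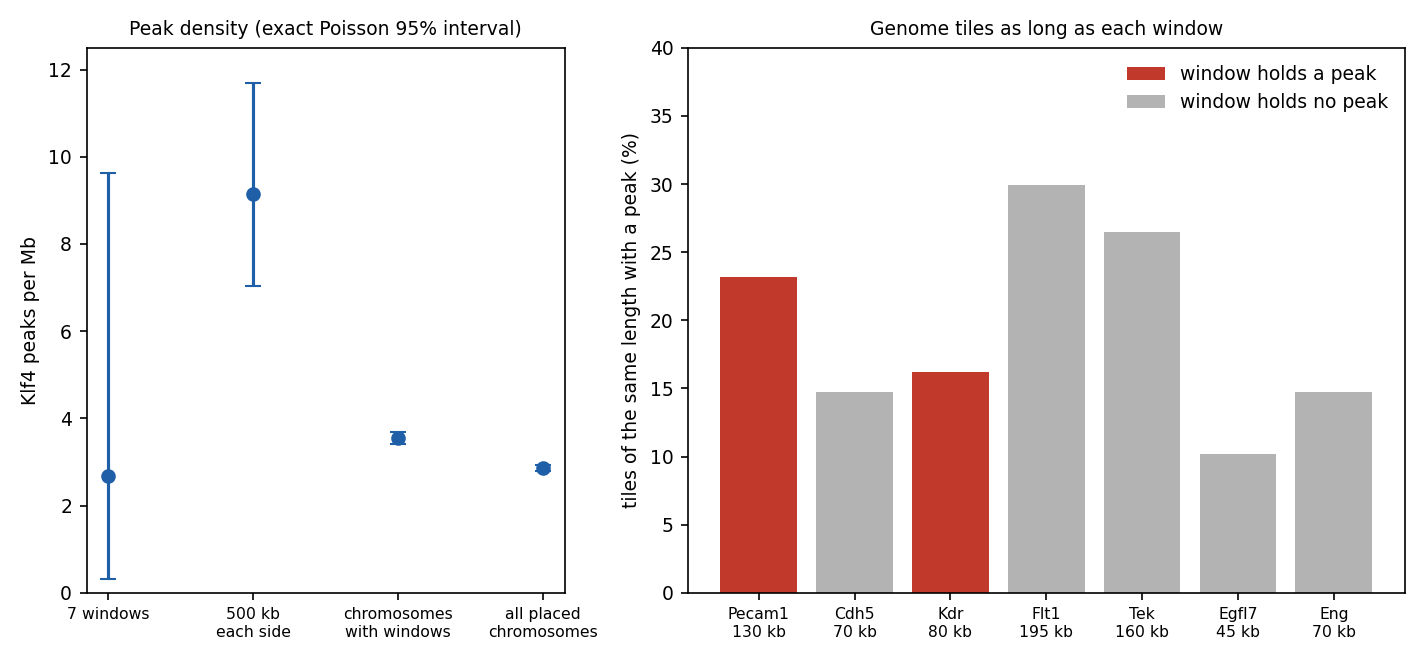
Left, peaks per Mb in the 7 windows, in the 500 kb on each side of them, on the 5 chromosomes that carry them and on all placed chromosomes, with exact Poisson 95% intervals. Right, the share of genome tiles as long as each window that hold a peak, in percent, with red bars for the genes whose window held a peak and grey bars for the others. The windows' interval of 0.323 to 9.63 covers the other 3 values, and the tile shares run from 10.2% to 29.9%.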

How the data were processed

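The study profiled Klf4 in mesenteric arcades in 1 library per genotype. Per the labels' protocols, chromatin of the fixed stromal vascular fraction was sheared and precipitated with an antibody to Klf4. Peak names show that the authors called peaks with MACS. The submitters' processing notes name Bowtie, SAMtools and mm9. The sources used here give no versions, thresholds or depth, and do not say which libraries entered the call. The deposited score per peak was used as it stands, only to rank peaks within the list.

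Starts were shifted to 1-based coordinates. Rates per Mb in the 7 windows together, in their flanks and over the chromosomes carry exact Poisson 95% intervals. Counts of single windows, rates of widened windows and tile shares carry none. No test was run, because there is 1 list without genotypes. Motifs were sought on both strands. The count of peaks per window and the tile share were tested on simulated data, and the other computations were not. The members, windows and lists were chosen with earlier results of these data known, and all 7 genes and all their peaks are named. Alternatives changed the score cut, the overlap, the window edges and merging. Computations ran in Python 3.11.15 with scipy 1.17.1, pandas 2.3.3 and numpy 2.4.6, and figures were drawn in matplotlib 3.10.9.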

Additional observations from a re-analysis of the deposited data

How the results depend on the processing

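The 2 peaks were found alike with any overlap of 1 bp, with whole peaks only, with windows narrowed by 10 kb on each side and with peaks under 1 kb apart merged. Among the upper 50% and the upper 25% of scores, 0 peaks, 0 windows with a peak and 0 peaks per Mb were left, so no median exists there. Windows widened by 25 kb on each side held 5 peaks in 3 windows, or 4.55 per Mb, with a median score of 77.86 and a median width of 877 bp. Widened by 50 kb, they held 8 peaks in 4 windows, or 5.52 per Mb, with medians of 109.99 and 907 bp. The added peaks lay at Pecam1 and Eng, and at 50 kb also at Egfl7, whereas Cdh5, Flt1 and Tek still had 0. The median score per kb of width was 100.4. Chosen after the data were seen, tiles shifted by 50% of their length again summed to 1.35 windows, and the surroundings held 10.6 peaks per Mb within 250 kb, above the windows' upper limit of 9.63, and 6.71 within 1000 kb, inside it. The windows' edges thus decide the counts at Pecam1, Eng and Egfl7. No paired analysis was possible because the peaks form a single list that names no genotype. The unknown depth limits what an empty window shows.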
